A study of Homo sapiens with 2 samples.

Results

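The serine synthesis and folate one-carbon enzymes considered here are 10 genes, PHGDH, PSAT1, PSPH, SHMT1, SHMT2, MTHFD1, MTHFD2, MTHFD1L, MTHFD2L and ALDH1L2, of 57894 genes with a matched transcript. They were chosen by name, as the enzymes that make serine and pass its carbon to folate, with earlier results of these libraries known. All 10 were found, with 123 transcripts in the deposited tables, and all 10 passed the filter on low counts. Because the difference between knockout and parental cells was in view when the set was chosen, that difference is given as a description of the set and not as a test of it.

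The study sequenced total RNA from HEK293, an established human embryonic kidney line, to measure what losing LARP7 does to the transcriptome; LARP7 is known to protect 7SK RNA from decay. The knockout group is HEK293 LARP7 knockout clone 1-11, with 2 libraries, and it is compared with parental HEK293 cells without the knockout, also with 2 libraries. All knockout libraries come from 1 clone, so the effect of the knockout and any other property of that clone cannot be told apart. The labels do not say whether replicate libraries are separate cultures; the p-values reflect only how these 4 libraries vary, which may be technical variation. For the knockout sample, the source field reads wildtype, in conflict with the title and the genotype, and the genotype was followed.

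Serine is made from a glycolytic intermediate in 3 steps, which PHGDH, PSAT1 and PSPH catalyse in that order. The SHMT enzymes move a carbon from serine to tetrahydrofolate and release glycine. The MTHFD enzymes interconvert the folate-bound carbon and formate, with separate sets of enzymes in mitochondria and cytosol. Proliferating cells use this carbon for purines and thymidylate, and ATF4, a transcription factor of the integrated stress response, is known to raise transcription of several of these genes.

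The libraries held 16838501 and 16218587 estimated reads in the knockout and 18483220 and 12851942 in parental cells. Fragment length, read from the effective lengths, was 232.9 and 225.8 bases in the knockout libraries, against 217.0 and 206.7 bases in the parental libraries. LARP7 itself had 36.1 and 31.9 CPM (estimated counts per 1000000 reads of library, after TMM scaling in edgeR) in the knockout libraries, against 59.8 and 46.5 CPM in the parental libraries, a log2 fold change of -0.65 that was not called (edgeR adjusted p = 0.135). The 7SK RNA had 169.5 and 204.5 CPM in the knockout libraries, against 5572 and 5481 CPM in the parental libraries, and fell by 4.89 on the log2 scale (edgeR adjusted p = 1.13e-06). Of 11 kidney and HEK293 marker genes, 7 had at least 1 TPM (abundance per transcript length) in every library and none was at 0; their summed TPM was 347 and 338 in the knockout and 265 and 201 in parental libraries. VIM made up most of that sum, and NEFM went the other way, with 2.51 and 2.49 TPM in the knockout and 11.8 and 13.9 TPM in parental libraries. TPM across libraries also carries their composition. Both endothelial markers were at 0 in all 4 libraries, and the summed TPM of 5 blood markers was 2.18 and 2.85 in the knockout and 0.268 and 1.31 in parental libraries. The part of these markers in the members' values was not tested. In bulk RNA, fewer cells of a type and less RNA per cell cannot be told apart.

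Together the 10 genes held 1118 CPM in each knockout library, against 1459 and 1814 CPM in the parental libraries. The log2 fold changes of ALDH1L2 (-1.23, not called), PSAT1 (-1.09, called) and SHMT2 (-0.86, called) were the lowest, while cytosolic MTHFD1 and mitochondrial MTHFD2L overlapped between the groups. For 8 of the 10 genes both knockout libraries lay below both parental libraries, against 22.7% of all tested genes, and for none did both lie above (23.5% of tested genes). A gene was called where its adjusted p in edgeR's quasi-likelihood test was under 0.05 over 18484 tested genes. By that rule 2 of the 10, PSAT1 and SHMT2, were lower and 0 higher, where 0.833% of tested genes were called, 0.503% lower and 0.33% higher. DESeq2 called 4 lower, adding MTHFD2 and ALDH1L2, and 0 higher, where it called 1.63% of its tested genes lower and 1.12% higher. The voom method of limma called the same 2 genes as edgeR, where it called 0.498% lower and 0.314% higher. Since this contrast was known when the set was chosen, nothing is read from those shares. The median log2 fold change was -0.49 over the 10 genes, against 0.002 over all tested genes.

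**Figure D1:**
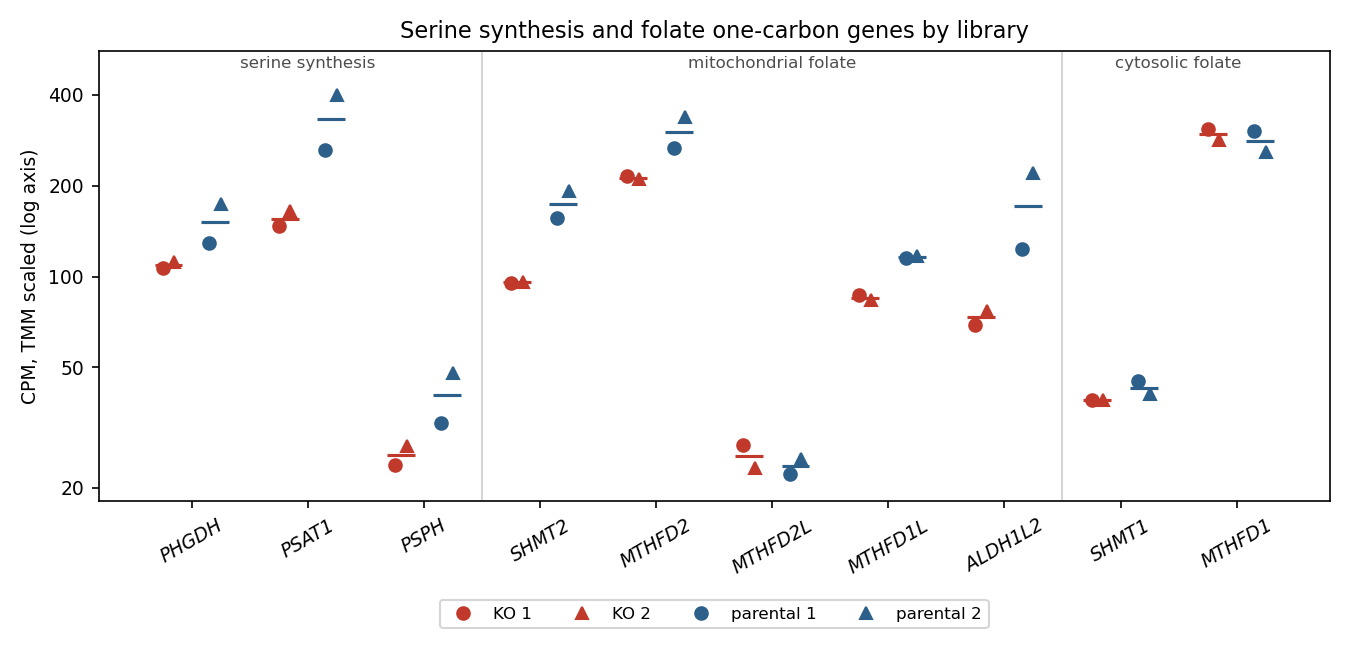
CPM of each of the 10 enzymes in the 2 knockout libraries (left) and the 2 parental libraries (right); each point is a library, the bar is the group mean and the axis is logarithmic. PSAT1, SHMT2 and ALDH1L2 show the widest gaps between groups, and the parental libraries of ALDH1L2 and PSAT1 also lie far apart, at 123 and 220.2 CPM and at 263 and 400.6 CPM.

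Of the serine synthesis enzymes, PSAT1 differed most. PSAT1 (ENSG00000135069, GRCh38 chr9:78297143-78330093, plus strand) encodes phosphoserine aminotransferase, which takes an amino group from glutamate. It had 146.7 and 164.8 CPM in the knockout libraries, against 263 and 400.6 CPM in the parental libraries. Both knockout values were low and close together, and the parental values were high and far apart. The means were 156 ± 12.8 CPM in the knockout and 332 ± 97.3 CPM in parental cells (SD, n = 2 each). PSAT1 fell by 1.09 on the log2 scale (SE 0.19), 2.13-fold, and 3.40% of tested genes had a lower log2 fold change. The call was lost with library size alone as the scaling, with a stricter filter on counts and with a transcript-length offset, at log2 fold changes of -1.002, -1.10 and -1.10. Without parental library 2 the log2 fold change was -0.76, and without parental library 1 it was -1.37. With 1 library left in a group, the spread comes from the other group alone and the lone library is assumed to vary like it, so calls in such fits do not show stability.

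Nearly all PSAT1 reads fell on one transcript. PSAT1-202 held 99.8 and 99.8% of the gene's TPM in the knockout libraries and 99.2 and 99.9% in the parental libraries. It differs from PSAT1-201, the other annotated transcript, by an additional coding exon, exon 8 of 9 (chr9:78328051-78328188, plus strand, 138 bases), and by a longer last exon. The exon is shown as the sequence that separates the form measured here from the one with almost no reads, and the RefSeq promoter (GRCh38.p14, chr9:78296875-78297174, plus strand, 250 bases before to 50 after the start) as the upstream sequence of the serine synthesis gene that differed most. The promoter was searched on both strands for TGATGNAA, the core of the C/EBP-ATF response element, and holds no match.
PSAT1-202 exon 8: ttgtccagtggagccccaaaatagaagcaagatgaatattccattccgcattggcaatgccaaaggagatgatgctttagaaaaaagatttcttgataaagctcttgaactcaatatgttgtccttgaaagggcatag
PSAT1 promoter: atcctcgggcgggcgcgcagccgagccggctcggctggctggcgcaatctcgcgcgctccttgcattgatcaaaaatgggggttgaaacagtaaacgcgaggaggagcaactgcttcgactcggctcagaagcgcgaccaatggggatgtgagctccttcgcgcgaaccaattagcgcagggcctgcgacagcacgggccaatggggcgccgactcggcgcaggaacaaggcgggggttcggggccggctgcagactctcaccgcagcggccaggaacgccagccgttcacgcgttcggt

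PHGDH (ENSG00000092621, chr1:119648411-119744226, plus strand), the dehydrogenase of the first step, had 106.6 and 111.4 CPM in the knockout libraries, against 129.5 and 174.4 CPM in the parental libraries. The groups did not overlap, and parental library 2 was the highest. The log2 fold change was -0.48 (SE 0.16), not called. The tables hold 7 of the 34 transcripts that GENCODE v29 annotates for PHGDH, and shares are over those 7. PHGDH-202, a protein-coding transcript, had 66.4 and 53.0% of the gene's TPM in the knockout libraries, against 48.0 and 47.5% in the parental libraries, while the retained-intron transcript PHGDH-207 had 18.7 and 28.4% in the knockout libraries and 39.7 and 32.4% in the parental libraries. In CPM, PHGDH-202 had 86.6 and 81.9 in the knockout libraries and 92.6 and 118 in the parental libraries, and PHGDH-207 had 5.39 and 9.82 in the knockout libraries and 17.5 and 18.7 in the parental libraries. The groups were thus closer for the protein-coding form than for the retained-intron form, a difference in usage that was not called.

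PSPH (ENSG00000146733, chr7:56011051-56051604, minus strand) encodes the phosphatase that releases serine. It had 23.7 and 27.5 CPM in the knockout libraries, against 32.7 and 48.1 CPM in the parental libraries. The groups did not overlap, with a log2 fold change of -0.66 (SE 0.20), not called. Its protein-coding transcript PSPH-202 had 69.3 and 49.3% of the gene's TPM in the knockout libraries, against 59.6 and 27.1% in the parental libraries, and the groups overlapped. In CPM, PSPH-202 had 20.7 and 19.0 in the knockout libraries and 26.2 and 17.8 in the parental libraries, which also overlapped. PSPH-210, marked as a target of nonsense-mediated decay, had 1.19 and 5.60 CPM in the knockout libraries and 3.49 and 14.4 CPM in the parental libraries. The groups were thus separate for the gene but not for PSPH-202.

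Of the mitochondrial enzymes, SHMT2 alone was called by edgeR. SHMT2 (ENSG00000182199, chr12:57229327-57234935, plus strand) encodes the mitochondrial serine hydroxymethyltransferase. It had 95.4 and 96.0 CPM in the knockout libraries, against 156 and 192.4 CPM in the parental libraries. The knockout libraries were nearly equal and lay well below both parental libraries. The means were 95.7 ± 0.425 CPM in the knockout and 174 ± 25.7 CPM in parental cells (SD, n = 2 each), and SHMT2 fell by 0.86 on the log2 scale (SE 0.14), 1.82-fold. The call was lost with the transcript-length offset, at a log2 fold change of -0.90. It was also lost without either knockout library, at an unmoved log2 fold change of -0.86 in both fits, where the spread comes from the parental pair alone. An annotated antisense gene, AC137834.2, overlaps 8.83% of the exon bases of SHMT2, and since the strand setting is not given in the sources used here, reads of the pair cannot be told apart there.

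The largest share of SHMT2 TPM was assigned to a transcript marked as a target of nonsense-mediated decay. This transcript, SHMT2-226, had 42.0 and 46.3% of the gene's TPM in the knockout libraries and 48.4 and 46.9% in the parental libraries. The protein-coding SHMT2-202 had 24 and 18% in the knockout libraries, against 21.4 and 12% in the parental libraries. In CPM, SHMT2-226 had 48.5 and 52.5 in the knockout libraries and 89.6 and 113 in the parental libraries, and SHMT2-202 had 24.8 and 18.3 in the knockout libraries and 35.5 and 26.0 in the parental libraries. Both forms were lower in each knockout library than in each parental library. The decay form begins at another first exon and has a longer last exon, of 702 bases against 493 in SHMT2-202. It also lacks exon 3 of 12 of SHMT2-202 (chr12:57231481-57231560, plus strand, 80 bases, coding). Which of these differences set the shares was not tested, so the shares do not measure skipping of exon 3. That exon is shown because its length is not a multiple of 3 and it is the internal coding exon that separates the 2 forms.
SHMT2-202 exon 3: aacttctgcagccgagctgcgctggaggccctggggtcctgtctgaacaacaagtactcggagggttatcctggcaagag

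**Figure D2:**
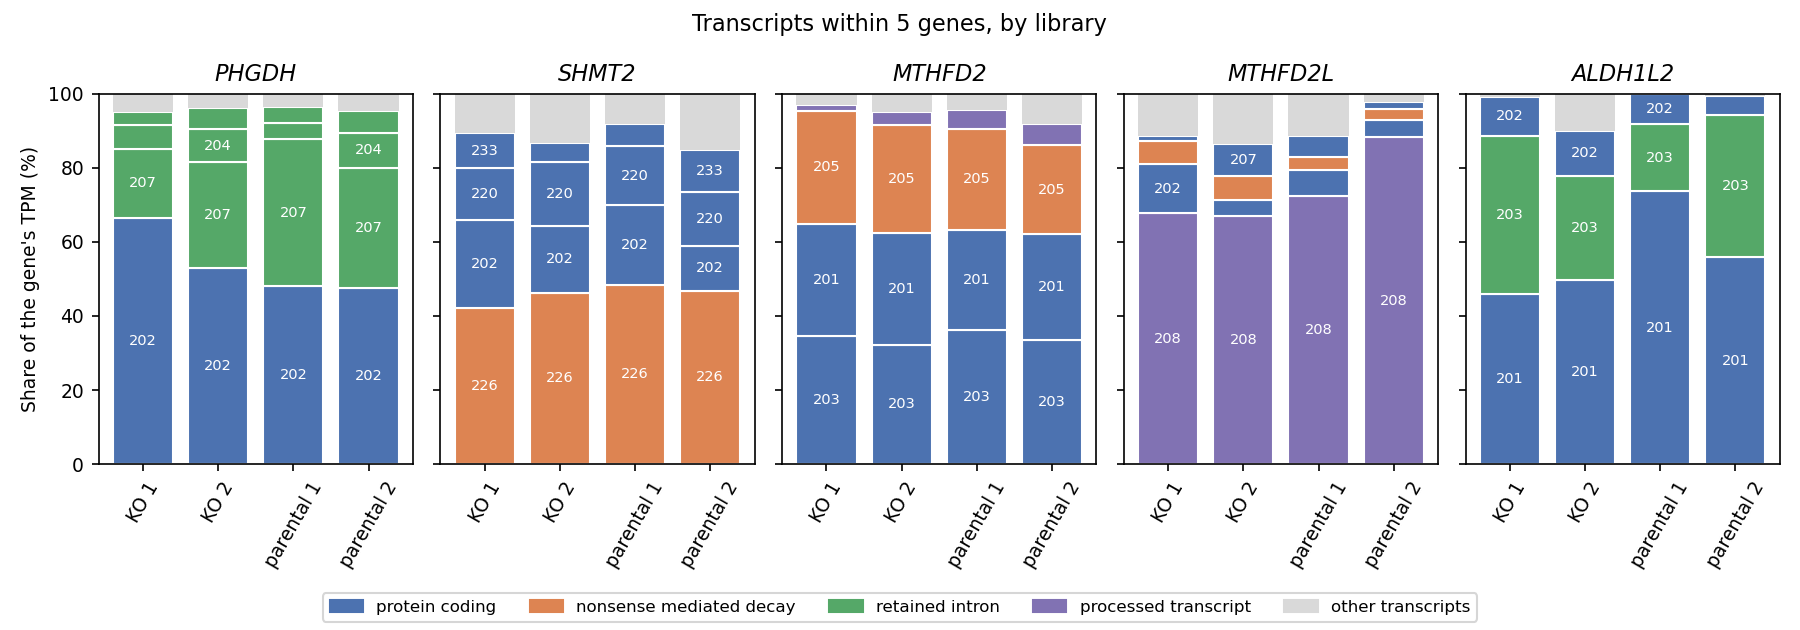
Share of each gene's TPM (percent) on its main transcripts, for the knockout libraries (left) and the parental libraries (right). Colours mark the annotated type in PHGDH, SHMT2, MTHFD2, MTHFD2L and ALDH1L2; the decay target SHMT2-226 holds 42.0 and 46.3% in the knockout libraries and 48.4 and 46.9% in the parental libraries.

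MTHFD2 (ENSG00000065911, chr2:74198562-74217565, plus strand) encodes the mitochondrial methylene-tetrahydrofolate dehydrogenase and cyclohydrolase that is abundant in embryonic and tumour cells. It had 214.9 and 210.9 CPM in the knockout libraries, against 267.6 and 336.9 CPM in the parental libraries. The groups did not overlap, and the log2 fold change was -0.51 (SE 0.14), not called. The decay target MTHFD2-205 held 30.5 and 29.3% of its TPM in the knockout libraries, against 27.2 and 23.9% in the parental libraries, and the processed transcript MTHFD2-204 held 1.44 and 3.43% in the knockout libraries, against 5.13 and 5.89% in the parental libraries. The groups did not overlap for either, nor for MTHFD2-201, and they overlapped for MTHFD2-203. MTHFD2-204 had only 8.95 and 21.4 reads in the knockout libraries and 44.7 and 47.4 in the parental libraries. How often transcript shares did not overlap over all genes is not given. Nothing is read from these transcripts, and usage of MTHFD2 was not called. The opposite-strand gene SLC4A5 overlaps 27.2% of the exon bases of MTHFD2, so its reads carry the same uncertainty.

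MTHFD2L (ENSG00000163738, chr4:74114174-74303099, plus strand), the paralogue with the same mitochondrial activities, did not share this pattern. It had 27.7 and 23.3 CPM in the knockout libraries, against 22.3 and 24.9 CPM in the parental libraries. The groups overlapped, at a log2 fold change of 0.11 (SE 0.17), and the sign turned to -0.02 without knockout library 1. Most of its reads fell on MTHFD2L-208, a processed transcript without an annotated coding sequence, which held 74.9 and 73.3% of the gene's reads in the knockout libraries and 78.0 and 91.6% in the parental libraries. The gene-level value is thus mostly that of MTHFD2L-208. The protein-coding MTHFD2L-202 had 1.39 and 0.377 CPM in the knockout libraries and 0.559 and 0.401 CPM in the parental libraries, which overlapped.

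MTHFD1L (ENSG00000120254, chr6:150865549-151101887, plus strand) encodes the mitochondrial formyl-tetrahydrofolate synthetase that releases formate. It had 86.6 and 83.7 CPM in the knockout libraries, against 115.5 and 116.9 CPM in the parental libraries. The parental libraries differed by 0.02 on the log2 scale, the smallest gap between parental libraries in the set, and the groups did not overlap. The log2 fold change was -0.45 (SE 0.12), not called. Its RefSeq promoter (GRCh38.p14, chr6:150866236-150866535, plus strand) was the single match to TGATGNAA among the 7 members with a promoter in the table, and is shown for that match, in capitals, whose first base lies at -129 from the start.
MTHFD1L promoter: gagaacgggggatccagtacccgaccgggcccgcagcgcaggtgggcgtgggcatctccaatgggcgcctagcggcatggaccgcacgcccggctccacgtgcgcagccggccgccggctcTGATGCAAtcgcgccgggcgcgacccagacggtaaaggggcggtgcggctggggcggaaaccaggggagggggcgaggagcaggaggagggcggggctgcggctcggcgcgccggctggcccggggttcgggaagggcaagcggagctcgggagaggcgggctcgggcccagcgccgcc

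The motif was present in 3.62% of all 35116 promoters of this length, and nothing is read from 1 match among 7 members. The 7 promoters had a median GC content of 66% and 27 CpG, against 58.7% and 14 over all promoters. The promoters of PSAT1, PHGDH, MTHFD2, MTHFD2L, SHMT1 and MTHFD1 hold no match in this window. PSPH, SHMT2 and ALDH1L2 are named only.

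ALDH1L2 (ENSG00000136010, chr12:105019784-105084577, minus strand) encodes the mitochondrial formyl-tetrahydrofolate dehydrogenase, which oxidises the carbon to CO2 and makes NADPH. It had 69.3 and 77.2 CPM in the knockout libraries, against 123 and 220.2 CPM in the parental libraries. It had the lowest log2 fold change of the set, -1.23 (SE 0.24), with means of 73.2 ± 5.61 CPM in the knockout and 172 ± 68.8 CPM in parental cells (SD, n = 2 each). The groups did not overlap, but the parental libraries differed by 0.84 on the log2 scale, the widest gap in the set, and the gene was not called. Without parental library 2 the log2 fold change was -0.75, and without parental library 1 it was -1.59. ALDH1L2 was called under 8 of the alternatives, among them DESeq2, protein-coding genes only and all 4 fits with a library left out, and not under the other 5. The protein-coding ALDH1L2-201 had 36.0 and 49.1 CPM in the knockout libraries, against 98.8 and 131 CPM in the parental libraries, while the retained-intron transcript ALDH1L2-203 had 32.7 and 27.1 CPM in the knockout libraries, against 23.8 and 88.5 CPM in the parental libraries. The groups were separate for the protein-coding form and overlapped for the retained-intron form.

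Both cytosolic enzymes lay close to equal levels in the 2 groups. MTHFD1 (ENSG00000100714, chr14:64388031-64463457, plus strand) encodes the cytosolic enzyme that joins the dehydrogenase, cyclohydrolase and synthetase activities in one protein. It had 307.8 and 284.4 CPM in the knockout libraries, against 304.5 and 259.1 CPM in the parental libraries, a log2 fold change of 0.07 (SE 0.13). The groups overlapped, and the sign turned to -0.04 without parental library 2. An annotated antisense gene, AL122035.2, overlaps 8.06% of the exon bases of MTHFD1, so reads of MTHFD1 carry the same strand uncertainty as those of SHMT2. The RefSeq promoter of MTHFD1 (GRCh38.p14, chr14:64388103-64388402, plus strand), without the motif, is shown beside that of MTHFD1L as the cytosolic counterpart.
MTHFD1 promoter: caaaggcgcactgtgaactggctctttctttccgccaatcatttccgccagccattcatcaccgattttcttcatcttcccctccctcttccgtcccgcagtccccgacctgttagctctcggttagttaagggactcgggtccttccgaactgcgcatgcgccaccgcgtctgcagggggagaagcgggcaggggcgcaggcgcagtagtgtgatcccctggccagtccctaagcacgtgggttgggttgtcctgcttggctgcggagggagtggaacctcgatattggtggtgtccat

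SHMT1 (ENSG00000176974, chr17:18327860-18363563, minus strand), the cytosolic serine hydroxymethyltransferase, had 39.2 and 39.0 CPM in the knockout libraries, against 45.0 and 40.7 CPM in the parental libraries. The groups did not overlap but lay close together, and the log2 fold change was -0.13 (SE 0.14), not called. Among tested genes 35.1% had a lower log2 fold change than SHMT1 and 58.2% a lower one than MTHFD1.

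**Figure D3:**
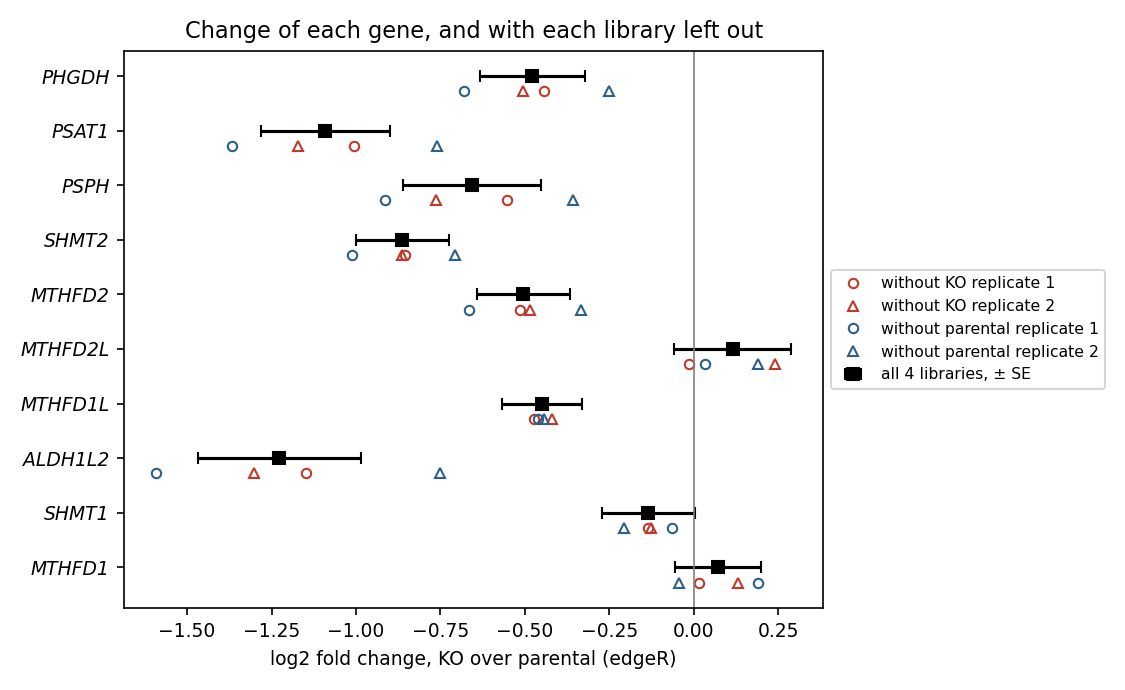
Log2 fold change of each enzyme, knockout over parental, with its standard error from edgeR (squares and bars), and the same with each library left out (open points), on an axis of log2 units. ALDH1L2 (-1.23), PSAT1 (-1.09) and SHMT2 (-0.86) lie furthest below 0, and MTHFD1 (0.07) and MTHFD2L (0.11) lie just above it.

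No member was called for a change in transcript usage. Of the 10 genes, 9 could be tested (PSAT1 had 1 usable transcript), with 0 called by edgeR's diffSpliceDGE, 0 at an unadjusted Simes p under 0.05 and 0 with the gene-level F test. Over all genes 0.683% of 9517 were called.

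Within a library, TPM summed over all transcripts of a gene allows the enzymes to be ranked against each other. In the knockout MTHFD1 came first at 145 ± 11.2 TPM, then MTHFD2 at 83.1 ± 1.77, PHGDH at 71.1 ± 6.86 and PSAT1 at 66.9 ± 4.01 TPM (SD, n = 2), with PHGDH and PSAT1 overlapping. In parental cells PSAT1 at 105 ± 13.5 TPM, MTHFD1 at 104 ± 23.5 and MTHFD2 at 92.2 ± 0.195 TPM overlapped in turn (SD, n = 2). The lowest were ALDH1L2 and MTHFD2L in the knockout, which overlapped, and MTHFD2L alone in parental cells. These sums include short and retained-intron transcripts. MTHFD1-201, which held most of the gene's reads, had 71.1 and 61.9 TPM in the knockout libraries. PSAT1-202 had 63.9 and 69.6 TPM there, an overlapping range, and the protein-coding PHGDH-202 had 44.0 and 40.2 TPM. The order of MTHFD1, PHGDH and PSAT1 in the knockout thus depends on which transcripts are counted. TPM is not compared between libraries here, because transcripts under 400 bases held 47.5 and 51.0% of TPM in the knockout libraries and 52.2 and 64.0% in the parental libraries.

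Within the set, the cytosolic enzymes took a larger share in the knockout libraries. Cytosolic folate enzymes held 33.5 and 30.4% of the set's summed TPM in the knockout libraries, against 24.8 and 18.6% in the parental libraries. Serine synthesis held 28.2 and 31.9% in the knockout libraries, against 34.9 and 40.2% in the parental libraries, and the mitochondrial enzymes held 38.2 and 37.7% in the knockout libraries and 40.3 and 41.2% in the parental libraries. None of these shares overlapped between the groups. They add up to the whole in each library, so they are not separate results. By CPM, single genes did not overlap in 22.7% (knockout below) and 23.5% (knockout above) of tested genes. The cytosolic MTHFD1 and SHMT1 themselves had log2 fold changes of 0.07 and -0.13.

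Pairs of enzymes were also set against each other within each library. The ratio of SHMT2 to SHMT1 TPM was 2.92 and 2.81 in the knockout libraries, against 4.09 and 5.47 in the parental libraries. The ratio of MTHFD1L to MTHFD1 was 0.253 and 0.299 in the knockout libraries, against 0.355 and 0.411 in the parental libraries. Both mitochondrial to cytosolic ratios were lower in each knockout library than in each parental library. All ratios here are built from the values of the same genes, so they are not separate results. How often ratios of other gene pairs did not overlap is not given. The sums also count other forms: decay targets held 46.0 to 50.8% of SHMT2 TPM, and retained-intron transcripts 30.5 to 54.1% of SHMT1 TPM. The ratio of MTHFD2 to MTHFD1 was 0.551 and 0.596 in the knockout libraries, against 0.765 and 1.05 in the parental libraries, and that of MTHFD2 to MTHFD2L was 6.87 and 8.28 in the knockout libraries and 11.6 and 13.6 in the parental libraries. By gene TPM, PHGDH exceeded PSAT1 in the knockout, with ratios of 1.03 and 1.09, and lay below it in parental cells, at 0.850 and 0.721. The protein-coding PHGDH-202 alone lay below PSAT1-202 in every library. It had 44.0 and 40.2 TPM in the knockout libraries, where PSAT1-202 had 63.9 and 69.6 TPM. In the parental libraries it had 38.9 and 39.3 TPM, where PSAT1-202 had 94.6 and 114 TPM.

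**Figure D4:**
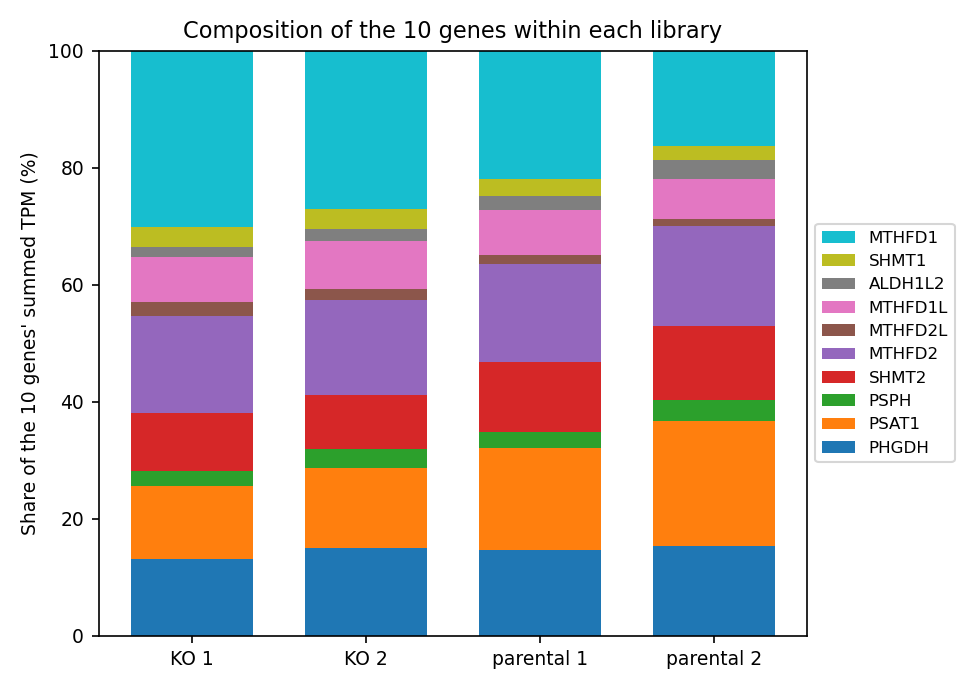
Share of the summed TPM of the 10 enzymes (percent) held by each, in the 2 knockout libraries (left) and the 2 parental libraries (right). MTHFD1 takes 30.2 and 27.1% in the knockout libraries and 21.9 and 16.3% in the parental libraries, and PSAT1 takes 12.6 and 13.7% in the knockout libraries and 17.3 and 21.3% in the parental libraries.

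The parental libraries differed from each other more than the knockout libraries did. For 8 of the 10 genes parental library 2 lay above parental library 1, and for 8 the parental spread was the wider. The parental pair was also the wider over all tested genes, with median absolute log2 differences of 0.310, against 0.185 in the knockout. The shares of all tested genes matching these counts are not given, and nothing about the set is read from the counts. The median absolute log2 difference between libraries of a group was 0.0886 in the knockout and 0.317 in parental cells over the set, against 0.117 in the knockout and 0.223 in parental cells over tested genes with an average log2 CPM of at least 3. Parental library 2 was also the shallowest and had the shortest fragments; the part of these in the members' values was not tested.

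Other genes that handle serine and folate carbon, and genes of linked pathways and of the ATF4 axis, were followed in 8 lists of named genes. Of their 101 tested genes 4 were called, all lower in the knockout, and 2 of these were in the ATF4 axis list. Over all tested genes 0.833% were called and 0.503% were called lower. Among 10 genes of mitochondrial one-carbon transport and use 1 was called lower and 0 higher, with a median log2 fold change of -0.32; DESeq2 called 3 genes of this list and limma voom 1. SFXN2, of the sideroflexin family of mitochondrial carriers, had 33.7 and 33.3 CPM in the knockout libraries, against 58.9 and 55.1 CPM in the parental libraries, and fell by 0.77 on the log2 scale (SE 0.13, edgeR adjusted p = 0.0446). That call was lost with library size alone, with the length offset and without either knockout library (adjusted p 0.0551 to 0.32). GLDC, the glycine decarboxylase of the glycine cleavage system, had 8.99 and 8.34 CPM in the knockout libraries, against 18.5 and 17.1 CPM in the parental libraries, and missed the threshold (edgeR adjusted p = 0.0602). SLC25A32, the mitochondrial folate carrier, had 33.5 and 33.1 CPM in the knockout libraries, against 58.2 and 45.9 CPM in the parental libraries, and was not called.

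Serine transport and use had 15 tested genes, 1 called lower and 0 higher, with a median of -0.26; DESeq2 called 2 and limma voom 1. CBS, which joins serine to homocysteine in transsulfuration, had 100 and 85.5 CPM in the knockout libraries, against 162.6 and 186.4 CPM in the parental libraries, and fell by 0.91 on the log2 scale (SE 0.14, edgeR adjusted p = 0.026). The call was lost with the length offset (adjusted p 0.0684) and without knockout library 2 (adjusted p 0.126). CTH, the next enzyme of that route, had 23.3 and 28.8 CPM in the knockout libraries, against 39.2 and 109.2 CPM in the parental libraries. SLC1A4, a neutral amino acid transporter that carries serine, had 5.72 and 5.44 CPM in the knockout libraries, against 10.5 and 19.0 CPM in the parental libraries. Neither CTH nor SLC1A4 was called, and for both the groups did not overlap.

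The list of genes of the ATF4 axis outside the set had 16 tested genes, 2 called lower and 0 higher, with the lowest median of the 8 lists, -0.71; DESeq2 called 5 and limma voom 2. SLC7A11, the cystine importer, had 42.7 and 48.0 CPM in the knockout libraries, against 117.2 and 223.6 CPM in the parental libraries, and fell by 1.91 on the log2 scale (SE 0.27, edgeR adjusted p = 0.0184). ASNS, asparagine synthetase, had 81.8 and 76.7 CPM in the knockout libraries, against 162.6 and 293.8 CPM in the parental libraries, and fell by 1.52 on the log2 scale (SE 0.24, edgeR adjusted p = 0.0309). As in ALDH1L2 and PSAT1, parental library 2 was the highest for both. ATF4 itself, named after its values were seen, had 189.4 and 194.2 CPM in the knockout libraries, against 263 and 288.2 CPM in the parental libraries. It was not called (edgeR adjusted p = 0.0961). The list was not uniform, with 14 negative log2 fold changes and 2 positive ones, TRIB3 (0.11) and ATF5 (0.29). For TRIB3 both knockout libraries lay above both parental libraries. The groups overlapped for ATF5, DDIT3, DDIT4, CEBPB, CEBPG and VLDLR.

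The 5 remaining lists had no called gene by edgeR. Folate uptake and the cytosolic folate cycle (11 tested genes, median -0.16) had 4 genes at an unadjusted p under 0.05, with 1 called by DESeq2 and 0 by limma voom. One of these was GGH, a folate hydrolase, at 109.2 and 114.6 CPM in the knockout libraries, against 77.6 and 79.8 CPM in the parental libraries (edgeR adjusted p = 0.119), so that both knockout libraries lay above. DHFR2, a mitochondrial dihydrofolate reductase, had 9.28 and 8.40 CPM in the knockout libraries, against 12.6 and 13.6 CPM in the parental libraries. The methionine cycle had 5 tested genes and a median of -0.06, with 0 at an unadjusted p under 0.05 and 0 by either other tool. AHCYL1, related to the S-adenosylhomocysteine hydrolase, had 95.1 and 101 CPM in the knockout libraries, against 111 and 127 CPM in the parental libraries, and MAT2B, the regulatory subunit of methionine adenosyltransferase, had 52.8 and 56.1 CPM in the knockout libraries and 50.7 and 41.3 CPM in the parental libraries.

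De novo purine synthesis had 12 tested genes and a median of -0.06, with 2 at an unadjusted p under 0.05, 1 by DESeq2 and 0 by limma voom. In the purine list GART, which uses formyl-tetrahydrofolate, had 223.1 and 226.1 CPM in the knockout libraries, against 298.8 and 330.3 CPM in the parental libraries. IMPDH1, a dehydrogenase of guanine nucleotide synthesis, had 54.4 and 47.9 CPM in the knockout libraries, against 46.6 and 32.2 CPM in the parental libraries. Glycolysis had 15 tested genes and a median of -0.05, with 2 at an unadjusted p under 0.05, 2 by DESeq2 and 0 by limma voom. Its PFKL, the liver-type phosphofructokinase, had 31.2 and 28.99 CPM in the knockout libraries, against 42.5 and 51.8 CPM in the parental libraries, and its ENO1, an enolase, had 429 and 375 CPM in the knockout libraries and 702 and 497 CPM in the parental libraries. Both genes were lower in each knockout library than in each parental library, without a call by edgeR.

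Synthesis of other non-essential amino acids had 17 tested genes and a median of -0.22, with 7 at an unadjusted p under 0.05, 1 by DESeq2 and 0 by limma voom; its GPT2, a mitochondrial alanine aminotransferase, had 15.9 and 17.5 CPM in the knockout libraries, against 26.1 and 41.8 CPM in the parental libraries. ASS1, argininosuccinate synthase, had 10.4 and 13.1 CPM in the knockout libraries, against 16.5 and 23.4 CPM in the parental libraries. For both genes the groups did not overlap. Uncalled genes of all the lists were named for the size of their change, so nothing is read from their lack of overlap. This holds for CTH, SLC1A4, PFKL and ENO1 too. Over all tested genes the knockout lay wholly below in 22.7% and wholly above in 23.5%.

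**Figure D5:**
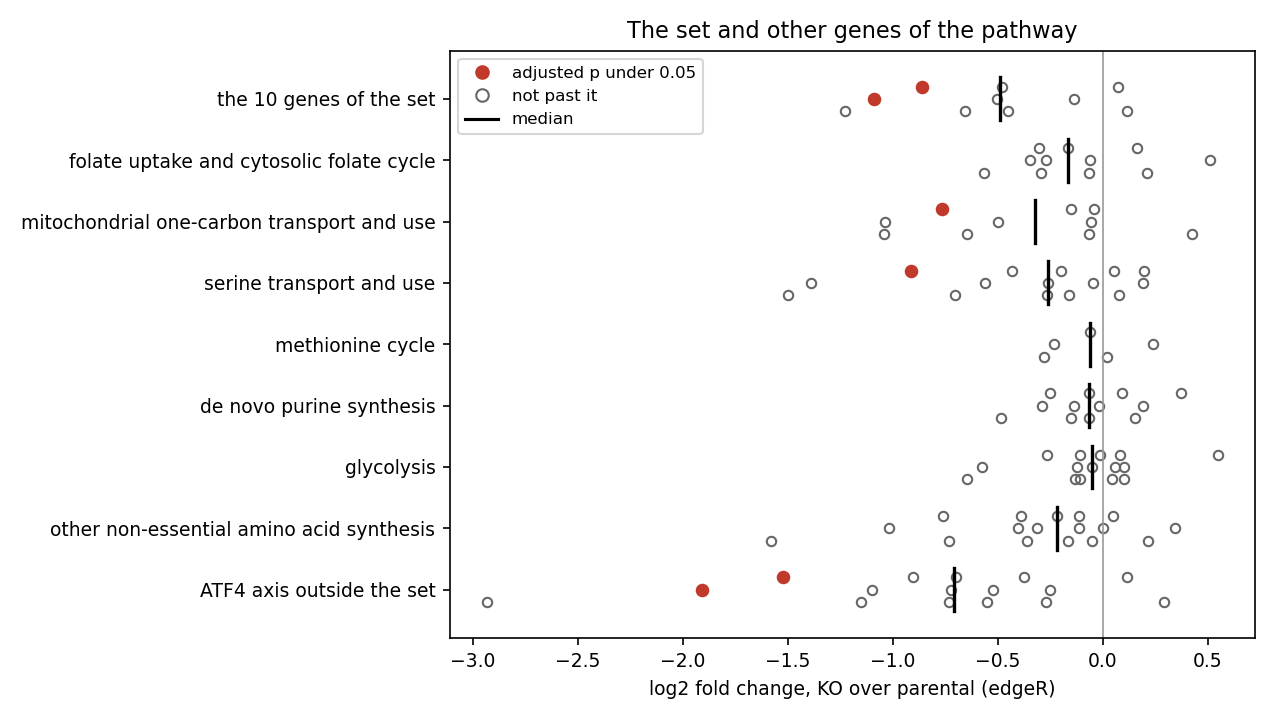
Log2 fold change, knockout over parental, of each tested gene in the set and in 8 lists of related genes; filled points were called and the bar is the list's median. The ATF4 axis list has the lowest median (-0.71), and the methionine, purine and glycolysis lists have medians of -0.05 to -0.06.

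Genes with a pattern over the 4 libraries most like that of PSAT1 were sought among 5854 protein-coding genes outside the set whose average log2 CPM was 5 or more, by the root mean square difference of centred log2 CPM. The nearest were SLITRK5 (0.0541), EEF2K (0.0713), POU4F1 (0.114), SESN2 (0.116) and STC2 (0.126). Within the set, ALDH1L2 lay nearest to PSAT1 (0.0984) and SHMT2 next (0.159). For SHMT2 the nearest were APEH (0.0288), TTLL3 (0.0365), VHL (0.0490), XRCC2 (0.0496) and RNF123 (0.0502).

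Annotated pseudogenes of the members held few reads. Of 14 annotated pseudogenes of its members, MTHFD1P1 alone reached 1 CPM in any library, at 1.23 and 2.07 CPM in the knockout libraries and 1.48 and 2.14 CPM in the parental libraries.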

How the data were processed

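Total RNA of 2 knockout and 2 parental HEK293 libraries was analysed. The deposited tables give, per transcript, the authors' estimated counts (the number of reads, per the file headers), TPM and effective length. The submitters' processing notes name Salmon 1.6, STAR 2.5.3a, cutadapt 1.6, Picard, edgeR 3.24.3, SAMtools 1.3.1, R (3.5.1, 3.3.3) and build hg38. Neither the annotation nor how strand was set is given in those sources.

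Identifiers were matched to GENCODE v29 (GRCh38; 197318 of 198002 transcripts, the rest holding at most 0.071% of reads). Estimated counts were summed per gene, rounded and tested with edgeR 4.0.16 in R 4.3.3 (filterByExpr, TMM, quasi-likelihood F test, Benjamini-Hochberg, adjusted p under 0.05). SE is the absolute log2 fold change over the root of F. TPM was compared within libraries, apart from the marker sums. Usage was tested with diffSpliceDGE over transcripts with at least 10 reads and 5% of the gene in 2 libraries. Alternatives were DESeq2 1.42.0, limma 3.58.1 voom, other scalings and filters, leaving out each library, a replicate block and a length offset. The edgeR steps were run on simulated counts, in 5 runs with 200 changed genes each. There 75.2% of 2-fold and 99.2% of 4-fold changes were called. Unchanged genes made up 7.31% of the calls, above the 5% aimed at. The 7SK entry holding the reads was taken after its values were seen.

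The members, lists and tests were chosen with earlier results of these data known. The text names all members, LARP7 and 7SK. From each list it names the called genes (up to 4). With fewer than 2 called, it adds the 2 with the largest change at an average log2 CPM of at least 3. The 5 genes most like PSAT1 and SHMT2 are also named. In the ATF4 axis list, ATF4, TRIB3 and the genes with overlapping groups were named outside this rule, after values were seen.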

Additional observations from a re-analysis of the deposited data

How the results depend on the processing

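Calls over all genes numbered 154 by edgeR, 459 with DESeq2, 831 without a filter, 91 with the transcript-length offset and 200 to 2265 with a library left out. Of the 10 enzymes, 2 were called by edgeR, 4 with DESeq2, 1 with library size alone (SHMT2), 5 without a filter, 1 with the stricter filter (SHMT2), 0 with the length offset and 2 to 7 with a library left out. List genes called numbered 4, against 15 with DESeq2, 20 without a filter, 2 with the length offset and 7 to 31 with a library left out. Usage calls numbered 65, against 115 with the gene-level F test, 21 at a share minimum of 10% and 0 to 88 with a library left out.

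With the replicate number as a block, edgeR called 1656 genes, 7 of the 10 enzymes and 24 list genes. No label says that equal replicate numbers share a culture or day, so the numbers were not taken to pair the libraries. Same-numbered libraries correlated at 0.133 in their deviations across genes. With 2 libraries a group, that value cannot decide whether they are paired.

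With a library left out, the log2 fold change of MTHFD2L ranged from -0.015 to 0.24 (negative without knockout library 1) and that of MTHFD1 from -0.043 to 0.19 (negative without parental library 2). The other 8 enzymes kept a negative log2 fold change under all alternatives run. Library size alone moved the median of all genes to 0.095, with 106 genes called higher and 82 lower, against 61 and 93. The cause of these shifts was not tested. With 2 libraries a group, the spread is poorly known.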
